A study of Mus musculus with 36 samples.

Results

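The genes described here are 33 genes of glycolysis, glucose and lactate transport, pyruvate dehydrogenase control and the hypoxia response. They were chosen by name, as a list of enzymes, transporters and oxygen-response genes, out of 26709 genes in the RNA table. Earlier results of these data were known when the list was made. All 33 were in the table and all 33 passed the filter on low values (a mean normalised read count of at least 10 over the 18 RNA libraries). By role they are 2 glucose transporters, 8 enzymes of the upper part of glycolysis and 7 of its lower part, 2 makers of fructose 2,6-bisphosphate, 4 genes of lactate, 5 of pyruvate dehydrogenase and its kinases, and 5 of the hypoxia response.

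Primary cortical neurons (CNs) came from CD-1 mouse embryos at day E15 and were used after 7 days in vitro. All groups, controls included, were first silenced for 2 h with 100 μM AP-5, which blocks NMDA receptors, and 1 μM TTX, which blocks sodium channels. Stimulated CNs then received 10 ng/ml BDNF, the ligand of TrkB, or 55 mM KCl, which depolarises the membrane, for 1, 6 or 10 h, whereas controls stayed silenced, for 3, 8 or 12 h in all. KCl was given as a salt buffer added to the culture medium, which also diluted that medium. The study describes no such addition for controls or BDNF. Depolarisation and diluted medium therefore cannot be told apart in KCl groups. RNA-seq and ATAC-seq each gave 18 libraries, 2 for each of 9 groups, and the 6 controls served together as the reference. The study calls the 2 libraries of a group biological replicates. Whether they came from separate dissections is not given in the sources used here, so p-values measure the spread between these libraries.

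Depth was 8.51 to 36.7 M reads for RNA libraries, while ATAC libraries held 1.24 to 6.24 M reads inside peaks, the lowest being 1 of the 2 KCl 6 h libraries. The 10 neuron markers summed to 3089 to 3396 TPM (transcript abundance scaled by length and depth) in controls and the 10 markers of astrocytes and radial glia to 2023 to 2279 TPM, so markers of both were present. Microglia markers summed to 21.8 to 35.8 TPM, endothelial and pericyte markers to 15.3 to 45.6 TPM and haemoglobin genes to 14.2 to 28.6 TPM. In bulk samples, fewer cells of a type and less RNA per cell cannot be told apart. No gene was called between controls of 6 h or 10 h and controls of 1 h by limma (0 of 16209 genes). Unadjusted p-values fell below 0.05 for 164 and 181 genes, fewer than the 1 in 20 that chance alone would give. With 2 libraries at each time, this test does not show that the controls were alike.

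Glucose enters cells through facilitative transporters, is phosphorylated by hexokinase, split and oxidised to pyruvate in the cytosol, and pyruvate is either reduced to lactate or passed to pyruvate dehydrogenase in mitochondria. Neurons carry Slc2a3 (GLUT3), glia and blood vessels mainly Slc2a1 (GLUT1), and several steps are run by paralogues that differ between neurons and astrocytes, such as Eno2 against Eno1 and Aldoa against Aldoc. Many of these genes are also known targets of HIF-1, the transcription factor that is stabilised when the oxygen-dependent prolyl hydroxylases, Egln3 among them, are inactive. HIF-1 binds a short core, ACGTG or GCGTG, in gene promoters.

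Per length, Pkm (pyruvate kinase) was the most abundant member in the 6 silenced controls, with 248 ± 12.3 TPM (SD, n = 6). Pgam1 (phosphoglycerate mutase, 183 ± 7.74 TPM) and Ldhb (lactate dehydrogenase B, 179 ± 6.98 TPM) followed, and the ranges of the latter pair over the controls overlapped. At the low end stood Hk2 (hexokinase 2), with 3.36 ± 0.765 TPM, and Slc16a3 (the lactate exporter MCT4), with 0.668 ± 0.216 TPM, against 65.9 ± 3.35 TPM for Hk1 and 54.4 ± 9.25 TPM for Slc16a1 (MCT1). Slc2a3 lay above Slc2a1 in each control, with 43.0 to 50.7 TPM against 13.7 to 24.2 TPM. Among paralogues, Aldoa made up 61.2 to 68.5% of the aldolase TPM, Pfkm 54.1 to 56.8% of phosphofructokinase, and Ldha 40.7 to 42.4% of lactate dehydrogenase.

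Both stimuli changed this set, with transporters and lower glycolysis mostly higher and the hypoxia genes going both ways. BDNF at 1 h raised 16 of the 33 members and lowered 2 (adjusted p below 0.1), where 40.4% of all 16209 genes tested were called, 21.3% higher and 19% lower. BDNF at 6 h raised 11 and lowered 4 (43.3% of all genes, 22.1% higher and 21.1% lower). At BDNF 10 h the counts were 15 and 2 (40.6% of all genes, 21.1% higher and 19.5% lower). KCl at 1 h raised 17 and lowered 5 (54.7% of all genes, 26.5% higher and 28.2% lower), at 6 h 16 and 7 (66.5%, 33.4% higher and 33.1% lower) and at 10 h 17 and 5 (57.2%, 29% higher and 28.2% lower). The share of members called was thus near or a little above that of all genes, and more members were higher than lower. At BDNF 1 h this split depended on the scaling: with TMM 10 were higher and 4 lower. The split of all 16209 genes moved as well, to 3109 higher and 3376 lower with TMM from 3459 and 3087 without it. The members' median log2 fold change stood at 0.09, 0.13 and 0.18 in BDNF libraries and at 0.22 in KCl libraries of each time, where the median of all genes lay between -0.01 and 0.01. Over the 6 comparisons 19 members were called higher at least once and never lower, 7 lower and never higher, 5 both ways and 2 (Hk2 and Ddit4) at no time. The same counts over all genes were not made, and 40.4 to 66.5% of all genes were called in each single comparison. These counts therefore describe the members only. Many of these calls were small and rested on few libraries: 8 of 18, 11 of 15 and 9 of 17 BDNF calls and 12 of 22, 20 of 23 and 16 of 22 KCl calls held without any 1 library. The fit used 1 spread per gene for all groups. The spread between the libraries of a group, as chi-square per degree of freedom, ran from 2.33 to 36.4 over the groups. SEs may thus be too small where libraries lay apart, as for Hk1 at KCl 6 h (2050 and 1422 reads). The count at BDNF 1 h was 9 without its library A, 11 without its library B and 9 against controls of the same time, that at BDNF 10 h was 10 without its library B, and that at KCl 1 h was 14 against controls of the same time.

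**Figure D1:**
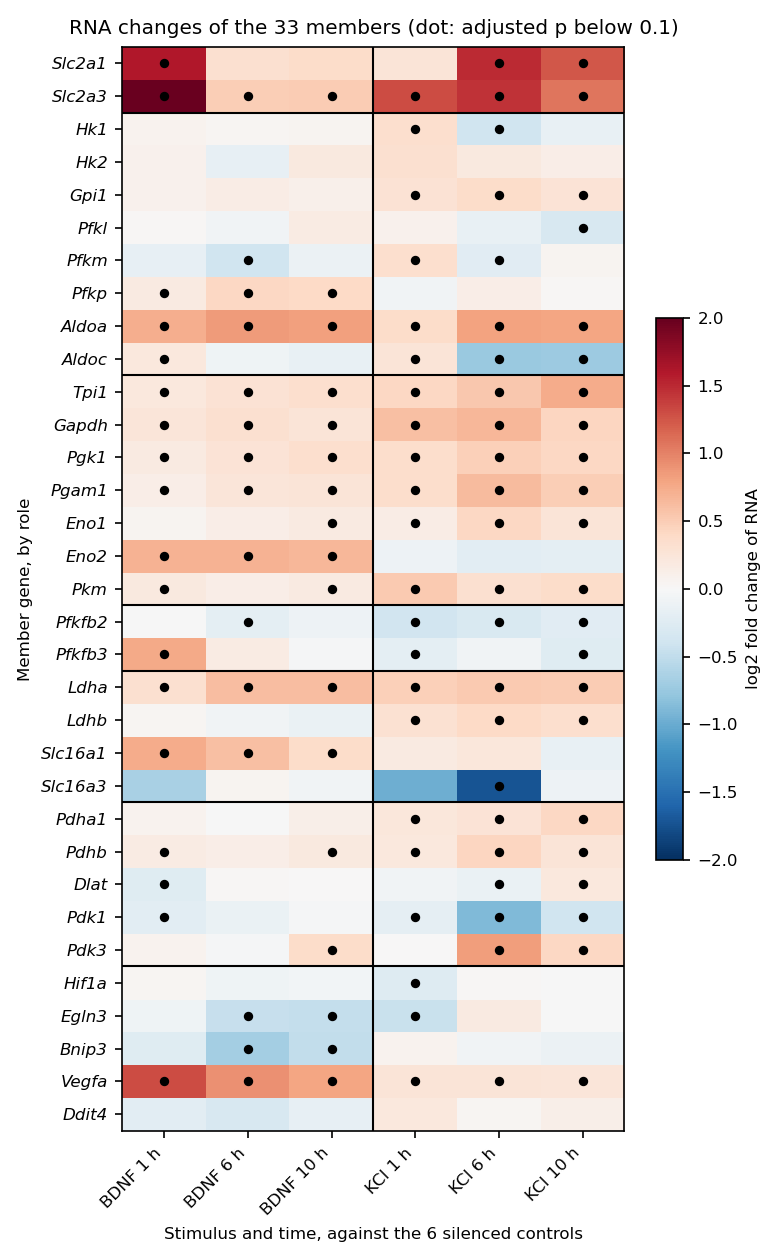
Log2 fold change of RNA (colour) of the 33 members (rows, by role) for each stimulus and time against the 6 silenced controls (columns), with a dot where the adjusted p was below 0.1. Slc2a3, Aldoa, Tpi1, Gapdh, Pgk1, Pgam1, Ldha and Vegfa carry a dot and a higher value in all 6 columns (with TMM scaling Tpi1, Pgk1 and Pgam1 lose it at BDNF 1 h), Eno2 and Slc16a1 with BDNF alone.

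The glucose transporters had the largest rises of the set. Slc2a3, the high-affinity carrier of neurons, held 1223, 1405 and 1481 normalised reads (lowest, median and highest of the 6 controls). It held 5339 and 5593 at BDNF 1 h, 1894 and 1990.0 at BDNF 6 h, then 2009 and 1921 at BDNF 10 h. With KCl it held 3855 and 3011 at 1 h, 3791 and 3753 at 6 h, then 2990 and 2822 at 10 h. No stimulated library overlapped the controls, and the BDNF 1 h libraries stood above all others. The log2 fold change was 1.98 (SE 0.08, adjusted p = 1.6e-14) at BDNF 1 h and 0.49 (SE 0.08) at BDNF 6 h, whereas KCl gave 1.30, 1.45 and 1.07 (SE 0.08) at 1, 6 and 10 h. KCl was lower than BDNF at 1 h by a log2 difference of -0.68 (SE 0.10, adjusted p = 9.4e-06) and higher at 6 h (0.96, SE 0.10, adjusted p = 6e-08) and 10 h (0.56, SE 0.10).

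Slc2a1, the carrier of glia and endothelium, changed at 1 time of BDNF and 2 of KCl. The controls held 193, 236 and 332 normalised reads (lowest, median, highest), BDNF 707 and 757 at 1 h, 277 and 327 at 6 h, then 284 and 341 at 10 h. KCl libraries held 259 and 314 at 1 h, 597 and 762 at 6 h, then 544 and 597 at 10 h. Only BDNF 1 h, KCl 6 h and KCl 10 h stood clear of the controls and were called, with log2 fold changes of 1.61 (SE 0.18, adjusted p = 2.1e-06), 1.49 (SE 0.18, adjusted p = 1.7e-06) and 1.25 (SE 0.18, adjusted p = 2e-05). At KCl 1 h the value was 0.25 (95% interval -0.12 to 0.62, adjusted p = 0.257). KCl lay below BDNF at 1 h by -1.35 (SE 0.21, adjusted p = 1e-04) and above it at 6 h by 1.16 (SE 0.21, adjusted p = 0.00026), so the order of the stimuli turned over between the times. Beside the spread of Slc2a1 in controls, endothelial and pericyte markers spread too: the 3 controls with 267 to 332 reads of Slc2a1 had marker sums of 35.6 to 45.6 TPM and the other 3, with 193 to 205 reads, sums of 15.3 to 22.6 TPM. Of the 8 markers in this list 4 passed the filter (Cldn5, Flt1, Tek and Rgs5 were under a mean of 10). At BDNF 1 h the sums were 19.5 and 23.2 TPM and at KCl 6 h 17.2 and 22.3 TPM, inside the range of the controls with low Slc2a1 or just above it. The part of these cells in the spread of Slc2a1 was not tested.

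**Figure D2:**
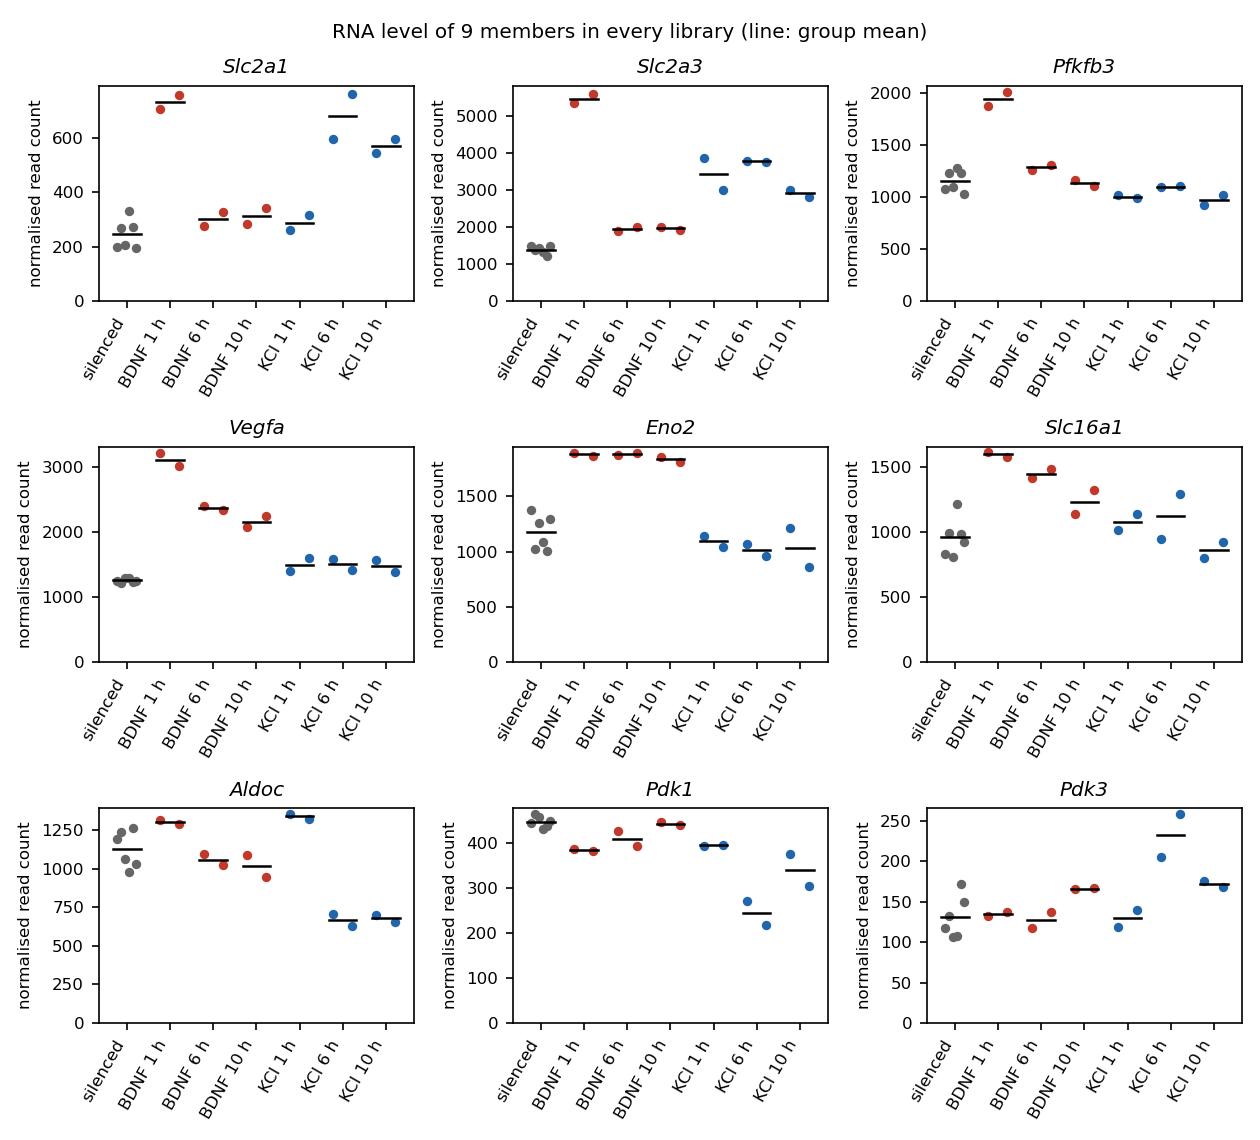
Normalised read count (y axis, from 0) of 9 members in every RNA library, grouped as silenced controls (grey), BDNF (red) and KCl (blue), with a line at each group mean. Within BDNF, Slc2a1 and Slc2a3 are highest at 1 h, Vegfa, Eno2 and Slc16a1 lie higher with BDNF than with KCl at each time, and Aldoc and Pdk1 are lowest at KCl 6 h.

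The chromatin of Slc2a3 gained accessibility at sites within the gene, and the pair with the largest change is shown because they carry the letters of an AP-1 site, the binding site of Fos and Jun proteins. Slc2a3 (ENSMUSG00000003153) spans chr6:122727809-122801640 on the minus strand in GENCODE M21, and the peaks lie in introns, 30717 and 42748 bp from its outermost start. Capitals mark TGANTCA, which reads the same on both strands (plus strand of mm10, GRCm38, the whole peak in each case).
Slc2a3 intron, chr6:122770797-122771050: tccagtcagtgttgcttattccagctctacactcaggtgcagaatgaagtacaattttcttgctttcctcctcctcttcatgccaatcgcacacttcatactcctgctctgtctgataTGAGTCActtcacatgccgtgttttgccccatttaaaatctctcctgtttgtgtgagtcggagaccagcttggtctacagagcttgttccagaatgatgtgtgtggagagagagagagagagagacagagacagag
Slc2a3 intron, chr6:122758812-122758972: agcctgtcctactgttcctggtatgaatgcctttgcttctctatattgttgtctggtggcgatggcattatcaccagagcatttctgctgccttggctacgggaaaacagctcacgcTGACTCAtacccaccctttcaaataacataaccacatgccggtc
The first of these peaks held 2.92, 7.00 and 10.7 scaled ATAC counts in controls (lowest, median, highest), 51.3 and 43.1 at BDNF 1 h, then 43.4 and 45.5 at BDNF 10 h, with no overlap. KCl libraries held between 13.4 and 36.7, above each control. Its log2 fold change was 2.72 (SE 0.36, adjusted p = 4e-10, edgeR) at BDNF 1 h and 1.74 (SE 0.39, adjusted p = 0.0022) at KCl 1 h. The second peak was thin, with 1.37 to 6.77 scaled counts in controls and 25.5 and 15.5 at BDNF 1 h (log2 2.62, SE 0.53, adjusted p = 4.1e-05), and its KCl 6 h libraries were far apart, at 24.4 and 2.63. Of the other intronic peaks of Slc2a3, 3 were gained at BDNF 1 h, with log2 values of 0.70, 0.82 and 2.06, and 1 closed at KCl 6 h (-0.91, SE 0.25).

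For Slc2a1 (ENSMUSG00000028645) 1 upstream peak was called, 2841 bp before the start, at BDNF 1 h (log2 1.02, SE 0.34, adjusted p = 0.03). Its promoter is shown for the 2 hypoxia cores it holds, in the 250 bases before its RefSeq start on GRCm38 (plus strand). Capitals mark ACGTG or GCGTG on either strand, so that CACGT and CACGC are the same cores read from the other strand.
Slc2a1 promoter, chr4:119108495-119108744: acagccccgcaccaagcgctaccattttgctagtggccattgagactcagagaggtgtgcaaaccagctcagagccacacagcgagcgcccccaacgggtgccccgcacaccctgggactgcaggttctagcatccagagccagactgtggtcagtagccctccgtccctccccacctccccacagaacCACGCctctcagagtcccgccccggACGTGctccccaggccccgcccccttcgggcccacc
No sequence before the start of Slc2a3 was used here.

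In the upper part of glycolysis the aldolases moved most and apart from each other. Aldoa, the aldolase of neurons and muscle, rose in all 6 comparisons, by log2 0.73, 0.85 and 0.82 with BDNF and 0.37, 0.81 and 0.79 with KCl at 1, 6 and 10 h (SE 0.06 each, largest adjusted p = 5.8e-05). Controls held 1744 to 2089 normalised reads and stimulated libraries 2346 to 3496, with no overlap. Aldoc, the aldolase of astrocytes, held 977, 1128 and 1265 reads in controls (lowest, median and highest) and fell to 709 and 630 at KCl 6 h and 700.4 and 656 at KCl 10 h. Its log2 fold change was -0.75 (SE 0.09, adjusted p = 2.6e-07) and -0.73 (SE 0.09, adjusted p = 7.3e-07) at these times, against 0.25 (SE 0.09) at KCl 1 h, a call lost without KCl 1 h library A (0.23). With BDNF Aldoc gave 0.21 at 1 h, a call lost without any of 5 single libraries (0.17 to 0.23), and -0.09 and -0.15 at 6 and 10 h, not called. The share of Aldoa in the aldolase TPM was 61.2 to 68.5% in controls, 77.9 to 79.6% with BDNF at 6 and 10 h and 83.9 to 85.7% with KCl at these times.

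Markers of astrocytes and radial glia fell beside Aldoc. Of 9 such markers tested, 7 were lower at KCl 6 h, 6 at KCl 10 h, 8 at BDNF 6 h and 5 at BDNF 10 h, and none was higher at these times. Of all genes, 33.1, 28.2, 21.1 and 19.5% were called lower in these groups, in this order. Their summed level was 1501 and 1557 TPM at KCl 6 h and 1591 and 1583 TPM at KCl 10 h, against 2023 to 2279 TPM in controls and 1777 to 2074 TPM with BDNF at 6 and 10 h. S100b was under a mean of 10. The summed level of the 10 neuron markers was also lower, with 2711 and 2009 TPM at KCl 6 h and 2821 and 2725 TPM at BDNF 6 h against 3089 to 3396 TPM in controls, although 7 of them were called higher and 2 lower at KCl 6 h. Of 8 oligodendrocyte lineage markers tested, 2 were higher and 5 lower at KCl 6 h. Of all genes, 33.4% were called higher and 33.1% lower at KCl 6 h. The part of these cell types in the fall of Aldoc was not tested.

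The other enzymes of the upper part had smaller peak changes than the aldolases, with called log2 values against controls between -0.40 and 0.41. Hk1, the main hexokinase of neurons, was not called with BDNF and gave 0.34 (SE 0.10) at KCl 1 h and -0.39 (SE 0.10) at KCl 6 h, the latter not called without KCl 6 h library B (-0.13). Hk2 was called in no comparison. Of the phosphofructokinases, Pfkp, the platelet type that neurons and glia also carry, rose with BDNF (0.18, 0.41 and 0.39 at 1, 6 and 10 h, SE 0.08) and not with KCl, where it gave -0.08, 0.13 and 0.02. Its BDNF 1 h libraries, with 2647 and 2668 reads, overlapped the controls (2118 to 2658), and that call was lost without any of 6 single libraries (0.15 to 0.19). Pfkm, the muscle type, fell at BDNF 6 h (-0.40, SE 0.09, adjusted p = 0.0012) and rose at KCl 1 h (0.34, SE 0.09, adjusted p = 0.0028). At KCl 6 h it gave -0.23, a call lost without library B (-0.07). Pfkl, the liver type, was lower at KCl 10 h alone (-0.33, SE 0.09), and not without library B (-0.25). Gpi1, glucose-6-phosphate isomerase, rose with KCl at 6 h (0.36, SE 0.09), with 1863 and 1687 reads against 1258 to 1630 in controls, and its calls at 1 and 10 h (0.28 and 0.27) overlapped the controls and were each lost without library A (0.24 and 0.14). KCl and BDNF differed at 1 h for Pfkm (0.51, SE 0.11) and at 10 h for Pfkl (-0.49, SE 0.11) and Pfkp (-0.38, SE 0.10).

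Pfkp (ENSMUSG00000021196) also gained peaks with BDNF, and the 2 strongest are shown for the AP-1 letters they share with those of Slc2a3. The intronic one is the 300-base centre of its peak and the upstream one the whole peak (plus strand of mm10, capitals as above).
Pfkp intron, chr13:6626501-6626800: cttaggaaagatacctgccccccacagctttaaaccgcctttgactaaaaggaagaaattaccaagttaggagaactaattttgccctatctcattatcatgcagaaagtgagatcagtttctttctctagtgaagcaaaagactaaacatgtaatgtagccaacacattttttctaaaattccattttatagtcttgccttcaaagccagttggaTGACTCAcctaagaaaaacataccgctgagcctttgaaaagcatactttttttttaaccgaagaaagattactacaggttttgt
Pfkp upstream, chr13:6659395-6659685: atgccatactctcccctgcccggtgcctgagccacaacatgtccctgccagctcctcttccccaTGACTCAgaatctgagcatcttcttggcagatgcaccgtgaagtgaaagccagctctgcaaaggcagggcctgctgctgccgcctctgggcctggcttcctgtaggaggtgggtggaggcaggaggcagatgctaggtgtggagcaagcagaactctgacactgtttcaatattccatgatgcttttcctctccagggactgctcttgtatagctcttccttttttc
The intronic peak held 5.13, 7.41 and 10.4 scaled counts in controls (lowest, median, highest) and 41.6 and 37.1 at BDNF 1 h (log2 2.34, SE 0.39, adjusted p = 4e-07). The upstream one, 10763 bp before the start, held 1.01, 12.6 and 18.4 in controls and 62.5 and 50.5 at BDNF 1 h (log2 2.29, SE 0.34, adjusted p = 1.6e-08). At KCl 1 h the upstream peak, with 19.6 and 13.2, overlapped the controls and lay below BDNF by -1.80 (SE 0.42, adjusted p = 0.0014), and the intronic one lay below BDNF by -1.47 (SE 0.47, adjusted p = 0.027). Another peak 4006 bp before the start was gained at BDNF 1 h (1.45, SE 0.34) and 6 h (1.12, SE 0.35).

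**Figure D3:**
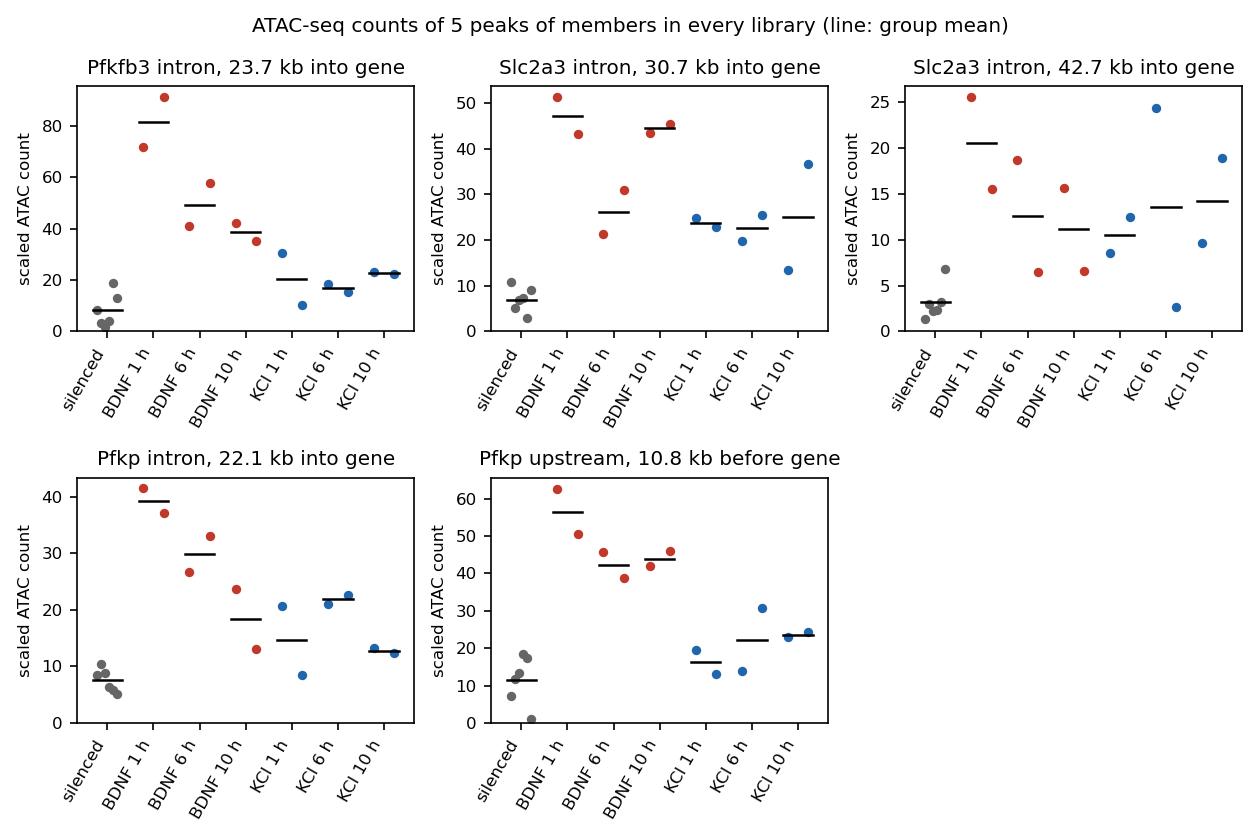
Scaled ATAC-seq counts (y axis, from 0) in every library of the 5 peaks outside promoters with the largest called change, of Pfkfb3, Slc2a3 and Pfkp, with distance from the gene start in kb and a line at each group mean. Both BDNF 1 h libraries (red) lie above all 6 controls (grey) in each of the 5 panels, and KCl libraries (blue) lie lower than BDNF at 1 h.

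Most genes of the lower part of glycolysis rose. With BDNF 6, 5 and 7 of the 7 were called higher at 1, 6 and 10 h, against 21.3, 22.1 and 21.1% of all genes. With KCl 6 were called higher at each time, against 26.5, 33.4 and 29% of all genes. Tpi1 (triosephosphate isomerase), Gapdh, Pgk1 (phosphoglycerate kinase) and Pgam1 were called higher in all 6 comparisons. With KCl at 6 h their log2 fold changes were 0.55, 0.66, 0.48 and 0.63 (SE 0.06 to 0.08, largest adjusted p = 1.6e-05), and at BDNF 6 h 0.30, 0.33, 0.27 and 0.24. Pgam1 shows the scale of these changes: controls held 1378 to 1537 normalised reads, BDNF 6 h 1681 and 1745, and KCl 6 h 2209 and 2282, with no overlap. At BDNF 1 h the 4 values were 0.14 to 0.24 and each of these calls was lost without at least 1 library (values 0.10 to 0.21), and with TMM scaling those of Tpi1, Pgk1 and Pgam1 were not called (0.18, 0.16 and 0.11). The same held for Tpi1 and Pgk1 at BDNF 6 h without its library B (0.26 and 0.22), for Gapdh at BDNF 10 h without library A (0.21) and for Pgk1 at BDNF 10 h without library B (0.21). Gapdh is taken here as the protein-coding gene ENSMUSG00000057666 (GENCODE M21, chr6:125161715-125166467 of mm10, minus strand), a gene that the authors' table names Gapdh-ps15, so the name of these values differs between the sources. GENCODE gives the name Gapdh-ps15 to another gene, a processed pseudogene. Reads of Gapdh could also be shared with its near-identical copies, that Gapdh-ps15 (254 to 389 normalised reads) and Gapdh-ps14 (1.16 to 12.2). Aldoa, Pfkp, Gapdh, Pfkm and Pfkfb2 each overlap a protein-coding gene on the other strand (Fam57b, Pitrm1, Iffo1, Senp1 and Yod1), and whether counting used strand is not given in the sources used here. KCl exceeded BDNF at 6 h for Gapdh by 0.34 (SE 0.08, adjusted p = 0.0019) and for Pgam1 by 0.39 (SE 0.07, adjusted p = 0.00014).

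The enolases were split by stimulus. Eno2, the neuron-specific enolase, held 1006, 1172 and 1377 normalised reads in controls (lowest, median and highest), 1895 and 1868 at BDNF 1 h, 1878 and 1895 at 6 h, then 1860.4 and 1813 at 10 h. With KCl its libraries held 857 to 1214 reads and overlapped the controls at each time. Its log2 fold change was 0.69, 0.70 and 0.66 with BDNF (SE 0.12, largest adjusted p = 0.00049) and -0.10, -0.21 and -0.19 with KCl (none called). The direct difference between KCl and BDNF was -0.79, -0.90 and -0.85 (SE 0.15, largest adjusted p = 0.0004). Eno1, the common form, rose instead with KCl at 6 and 10 h (0.41 and 0.26, SE 0.07), while its calls at KCl 1 h (0.14) and BDNF 10 h (0.18) were lost without single libraries (0.11 to 0.17 and 0.16 to 0.20). Eno2 made up 64.4 to 67.7% of the TPM of the pair in BDNF libraries, 51.4 to 61.4% in controls and 43.6 to 53.8% with KCl. Values of Eno1 carry a doubt: Eno1b, a near-identical copy, was listed at 2172 to 2758 normalised reads, above Eno1 itself, so reads may be split between them. The part of endothelial and pericyte cells in the spread of Eno2 was not tested either: the 3 controls with the highest sums of their markers had 1006 to 1083 reads of Eno2 and the other 3 had 1261 to 1377. The promoter peak of Eno2, 136 bp into the gene, was gained at BDNF 1 h (0.58, SE 0.24, adjusted p = 0.099) and 6 h (0.67, SE 0.24, adjusted p = 0.063), with 63.5 and 67.0 scaled counts at 1 h against 40.1 to 53.1 in controls. Pkm, the last enzyme, rose with KCl at 1, 6 and 10 h (0.52, 0.31 and 0.37, SE 0.06). With BDNF it gave 0.19, 0.14 and 0.19, not called at 6 h, and the calls at 1 and 10 h were lost without a BDNF library (0.14 to 0.20). KCl exceeded BDNF for Pkm by 0.32 (SE 0.08, adjusted p = 0.0028) at 1 h, and by 0.18 at both later times, calls that were lost without single libraries (0.07 to 0.19 at 6 h, 0.10 and 0.14 at 10 h).

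**Figure D4:**
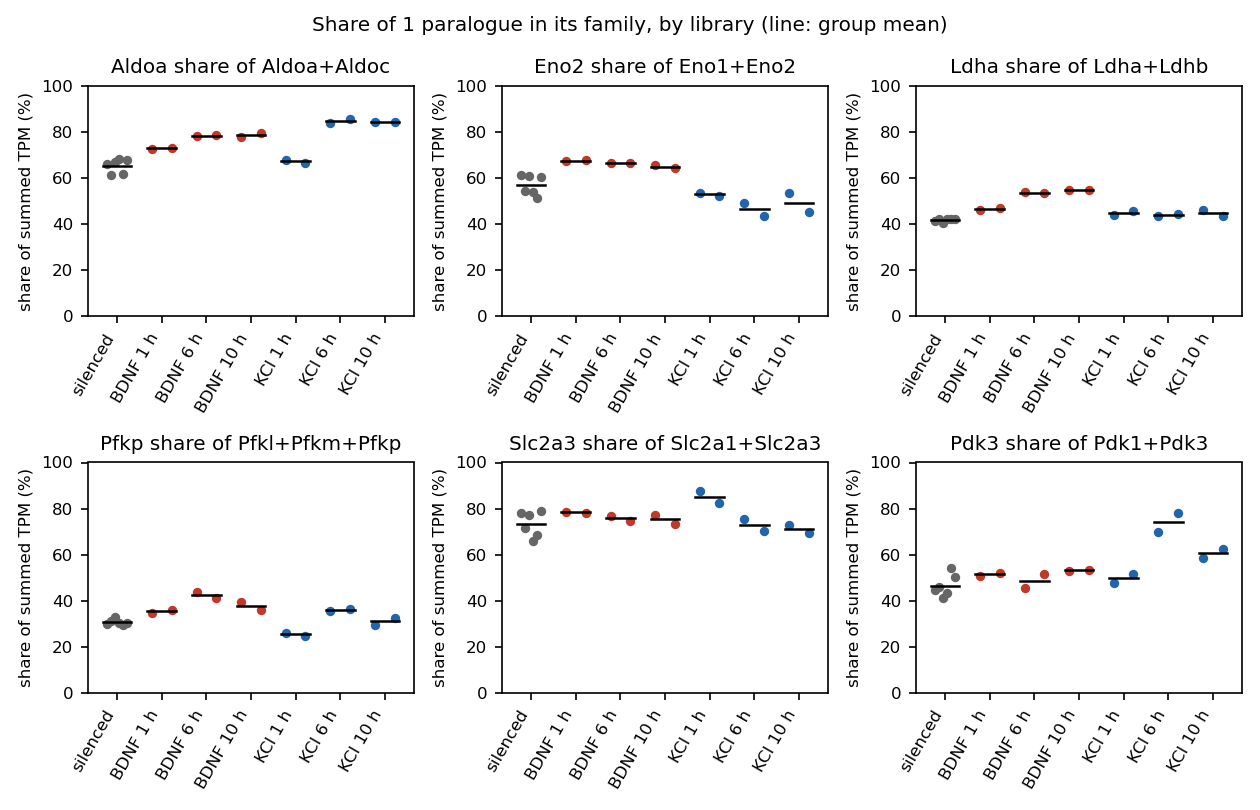
Share of 1 paralogue in the summed TPM of its family (y axis, 0 to 100%) in every RNA library, in controls (grey), BDNF (red) and KCl (blue), with a line at each group mean. The share of Aldoa is highest with KCl at 6 and 10 h and those of Eno2 and Ldha with BDNF. Pfkp is highest at BDNF 6 h, with KCl 6 h overlapping BDNF 1 and 10 h, and Pdk3 is highest at KCl 6 h.

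The 2 genes of fructose 2,6-bisphosphate, the small molecule that activates phosphofructokinase, were both lower with KCl at 1 and 10 h, and only Pfkfb3 was called at BDNF 1 h. Pfkfb3, the form with the strongest kinase activity, held 1025, 1162 and 1284 normalised reads in controls (lowest, median and highest), 1872 and 2014 at BDNF 1 h, 1265 and 1312 at BDNF 6 h, then 1165 and 1103 at BDNF 10 h. It rose at BDNF 1 h alone (log2 0.75, SE 0.08, adjusted p = 9e-08), stood apart from the controls there, and overlapped them by 6 h. With KCl it was lower at 1 h (-0.20, SE 0.08, 1015 and 989 reads) and 10 h (-0.25, SE 0.08, 928 and 1017), calls that were lost without KCl 1 h library B (-0.18) and KCl 10 h library A (-0.18). The difference between the stimuli at 1 h was -0.95 (SE 0.09, adjusted p = 4.9e-08). Pfkfb2, the form of heart and brain, fell with KCl at 1, 6 and 10 h (-0.38, -0.30 and -0.23, SE 0.07), the last overlapping the controls and lost without KCl 10 h library B (-0.16). At BDNF 6 h it gave -0.20, lost without library B (-0.12).

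Pfkfb3 (ENSMUSG00000026773) held the peak with the largest change of all members, in an intron 23697 bp from its outermost start, shown here as its 300-base centre (plus strand, AP-1 letters in capitals), beside the 250 bases before its RefSeq start (minus strand, hypoxia core in capitals).
Pfkfb3 intron, chr2:11530231-11530530: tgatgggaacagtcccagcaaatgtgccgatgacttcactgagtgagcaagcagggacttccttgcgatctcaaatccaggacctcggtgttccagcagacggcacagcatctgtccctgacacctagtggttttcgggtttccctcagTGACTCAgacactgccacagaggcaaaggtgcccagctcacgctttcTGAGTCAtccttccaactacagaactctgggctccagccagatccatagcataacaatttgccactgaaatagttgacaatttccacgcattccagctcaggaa
Pfkfb3 promoter, chr2:11553930-11554179: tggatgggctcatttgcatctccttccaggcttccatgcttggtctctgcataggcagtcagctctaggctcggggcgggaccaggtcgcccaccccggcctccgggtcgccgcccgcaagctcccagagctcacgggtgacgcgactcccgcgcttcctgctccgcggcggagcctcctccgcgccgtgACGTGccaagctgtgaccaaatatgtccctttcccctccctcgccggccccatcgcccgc
The intronic peak held 1.92, 6.15 and 18.9 scaled counts in controls (lowest, median and highest), 71.9 and 91.1 at BDNF 1 h, 40.9 and 57.7 at BDNF 6 h, then 42.2 and 35.2 at BDNF 10 h, all above the controls. Its log2 fold change was 3.40 (SE 0.34, adjusted p = 1.2e-15), 2.69 (SE 0.35) and 2.31 (SE 0.40), and it was still gained at 6 and 10 h, when the RNA overlapped the controls. At KCl 1 h it held 30.6 and 10.3, a smaller gain (1.34, SE 0.40, adjusted p = 0.033), and lay below BDNF by -2.06 (SE 0.40, adjusted p = 9.3e-05). The promoter peak was gained at 1 h with both stimuli, with 125 and 136 scaled counts for BDNF and 124 and 134 for KCl against 66.0 to 98.8 in controls (log2 0.62 and 0.60, adjusted p = 0.0035 and 0.015), and the RNA rose there with BDNF only.

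Of the lactate genes, Ldha, the subunit that favours lactate formation, rose in all 6 comparisons. Controls held 1628 to 1835 normalised reads, BDNF 2097 and 2129 at 1 h, 2591 and 2625 at 6 h, then 2617 and 2611 at 10 h, and KCl 2286 to 2577, with no overlap. The log2 fold change was 0.31, 0.62 and 0.62 with BDNF and 0.47, 0.52 and 0.50 with KCl (SE 0.06). Ldhb, the subunit of oxidative cells, rose with KCl alone (0.30, 0.39 and 0.33, SE 0.07) and gave 0.04, -0.07 and -0.13 with BDNF. KCl exceeded BDNF for Ldhb by 0.27, 0.46 and 0.47 (SE 0.08) at 1, 6 and 10 h, the first lost without KCl 1 h library A (0.19). The share of Ldha in the TPM of the pair therefore went from 40.7 to 42.4% in controls to 53.7 to 54.9% with BDNF at 6 and 10 h and 43.5 to 46.1% with KCl over the 3 times.

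The promoter of Ldha (ENSMUSG00000063229) is shown because its peak, which spans this start, was gained with BDNF at 1 h (log2 0.48, SE 0.18, adjusted p = 0.066) and 6 h (0.66, SE 0.18, adjusted p = 0.0055), with 97.9 and 115 scaled counts at 1 h overlapping the controls (55.2 to 103) and 127 and 115 at 6 h above them, and because it holds 5 hypoxia cores (plus strand, 250 bases before the RefSeq start). CACGTG, the E-box, holds ACGTG on both strands and counts as 2.
Ldha promoter, chr7:46845554-46845803: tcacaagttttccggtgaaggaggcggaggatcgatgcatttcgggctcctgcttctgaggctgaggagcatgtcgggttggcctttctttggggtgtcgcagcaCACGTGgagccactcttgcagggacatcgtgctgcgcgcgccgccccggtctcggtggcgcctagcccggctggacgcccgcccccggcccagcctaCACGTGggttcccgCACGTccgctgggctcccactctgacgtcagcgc
The promoter peak of Ldhb was gained with KCl at 1 h (0.48, SE 0.11, adjusted p = 0.0037) and 10 h (0.35, SE 0.12, adjusted p = 0.064). Of the lactate carriers, Slc16a1 rose with BDNF, with 1613 and 1580 reads at 1 h and 1414 and 1484 at 6 h against 808, 954 and 1214 in controls (lowest, median and highest). Its log2 fold change was 0.75 (SE 0.13, adjusted p = 0.00028), 0.61 (SE 0.13) and 0.37 (SE 0.13) at 1, 6 and 10 h, the last overlapping the controls and lost without BDNF 10 h library B (0.26), and it was not called with KCl (0.18, 0.22 and -0.15). Among controls Slc16a1 was highest in the library with the highest endothelial and pericyte sum (45.6 TPM). The part of these cells in its values was not tested. Slc16a3 was close to the filter, with 9.79 to 20.7 reads in controls and 4.92 and 2.32 at KCl 6 h (log2 -1.72, SE 0.48), and its fold change rests on the pseudocount.

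The pyruvate dehydrogenase genes moved mainly with KCl. Pdha1, the catalytic alpha subunit, rose with KCl at 1, 6 and 10 h (0.22, 0.28 and 0.41, SE 0.07), the first lost without KCl 1 h library A (0.15), and was not called with BDNF. Pdhb, the beta subunit, rose with KCl at 6 h (0.43, SE 0.07, adjusted p = 3.6e-05) and 10 h (0.26, SE 0.07). Its calls at KCl 1 h (0.21) and at BDNF 1 and 10 h (0.16 and 0.20) were each lost without single libraries. Dlat, the acetyltransferase, was lower at BDNF 1 h (-0.23, not called without its library A, at -0.20) and higher at KCl 10 h (0.22, SE 0.07). At KCl 6 h it gave -0.13, a call lost without KCl 6 h library B (-0.08) or any of 4 controls.

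The kinases that switch the complex off turned in opposite directions at KCl 6 h. Pdk1 held 431, 447 and 466 normalised reads in controls (lowest, median and highest), 271 and 218 at KCl 6 h and 375 and 305 at KCl 10 h. Its log2 fold change was -0.88 (SE 0.09, adjusted p = 2.1e-08) and -0.40 (SE 0.09, adjusted p = 0.00061), and at 1 h of either stimulus it gave -0.22 and -0.18, calls lost without single libraries (-0.23 to -0.17). Pdk3 held 106, 125 and 172 reads in controls and 205 and 258 at KCl 6 h, above each control (0.83, SE 0.15, adjusted p = 7.2e-05). Its values at 10 h (0.36 with BDNF, 0.41 with KCl) overlapped the controls and fell to 0.05 and 0.10 against the controls of 10 h, which were not called. The share of Pdk3 in the TPM of the pair was 41.2 to 54.3% in controls and 69.7 and 78.3% at KCl 6 h. KCl and BDNF differed at 6 h by -0.75 for Pdk1 (SE 0.11, adjusted p = 5.2e-06) and 0.86 for Pdk3 (SE 0.19, adjusted p = 0.00064). The promoter peak of Pdk1 closed at BDNF 10 h (-0.44, SE 0.16, adjusted p = 0.074), a time at which its RNA gave -0.02.

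The hypoxia genes did not move as 1 group. Vegfa, the vascular growth factor, rose at each time with each stimulus. Controls lay between 1213 and 1291 normalised reads, BDNF at 3212 and 3013 at 1 h, 2403 and 2342 at 6 h, then 2077 and 2247 at 10 h, and KCl between 1389 and 1602, with no overlap. The log2 fold change was 1.31 (SE 0.07, adjusted p = 8.3e-13), 0.92 and 0.78 with BDNF and 0.25, 0.26 and 0.24 with KCl, of which the first and last were lost without KCl 1 h library B (0.15) and KCl 10 h library A (0.15). The difference between the stimuli was -1.06, -0.66 and -0.55 (SE 0.08, largest adjusted p = 1.9e-05). Bnip3, a mitophagy receptor, fell with BDNF, with 199 and 187 reads at 6 h, then 211 and 229 at 10 h against 276 to 338 in controls (-0.68 and -0.49, SE 0.11, adjusted p = 5.7e-05 and 0.0018), and gave 0.07, -0.08 and -0.11 with KCl. Egln3, the oxygen-sensing prolyl hydroxylase, gave -0.46 and -0.48 (SE 0.17) at BDNF 6 and 10 h and -0.44 at KCl 1 h, and each of these calls was lost without single libraries (-0.47 to -0.31). Its controls spread from 117 to 203 reads. Hif1a itself, the oxygen-regulated subunit of HIF-1, was lower at KCl 1 h (-0.26, SE 0.07), not called without its library B (-0.14), and lay between -0.09 and 0.04 elsewhere. Ddit4, an inhibitor of mTOR signalling, was called in no comparison, and its KCl 6 h libraries were far apart, at 1694 and 908 reads, so that its value there was -0.41 without library A and 0.49 without library B, both called.

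The promoter of Bnip3 (ENSMUSG00000078566) is shown beside those above because it holds as many hypoxia cores as Ldha, 5, and its RNA fell with BDNF (minus strand, 250 bases before the RefSeq start).
Bnip3 promoter, chr7:138909507-138909756: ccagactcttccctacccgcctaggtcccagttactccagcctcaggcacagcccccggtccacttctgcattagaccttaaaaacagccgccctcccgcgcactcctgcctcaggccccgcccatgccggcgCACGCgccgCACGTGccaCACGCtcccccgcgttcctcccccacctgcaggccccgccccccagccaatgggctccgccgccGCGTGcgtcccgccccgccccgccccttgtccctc
Of the 32 members matched in the RefSeq promoter table, 24 (75%) held ACGTG or GCGTG on either strand in this window, against 38.6% of all 32851 starts in the table and 55.1% of 14056 starts of genes tested in RNA. The E-box CACGTG, which contains ACGTG, was found in 5 members (15.6%), against 6.02% of all starts and 8.14% of those of genes tested in RNA. Among the 8 members that were higher in all 6 comparisons, Gapdh, Pgk1, Pgam1 and Ldha held 2, 2, 3 and 5 cores in this window. Aldoa, Tpi1 and Vegfa held no core there and Slc2a3 was not in the table. A match describes the letters and no binding.

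**Figure D5:**
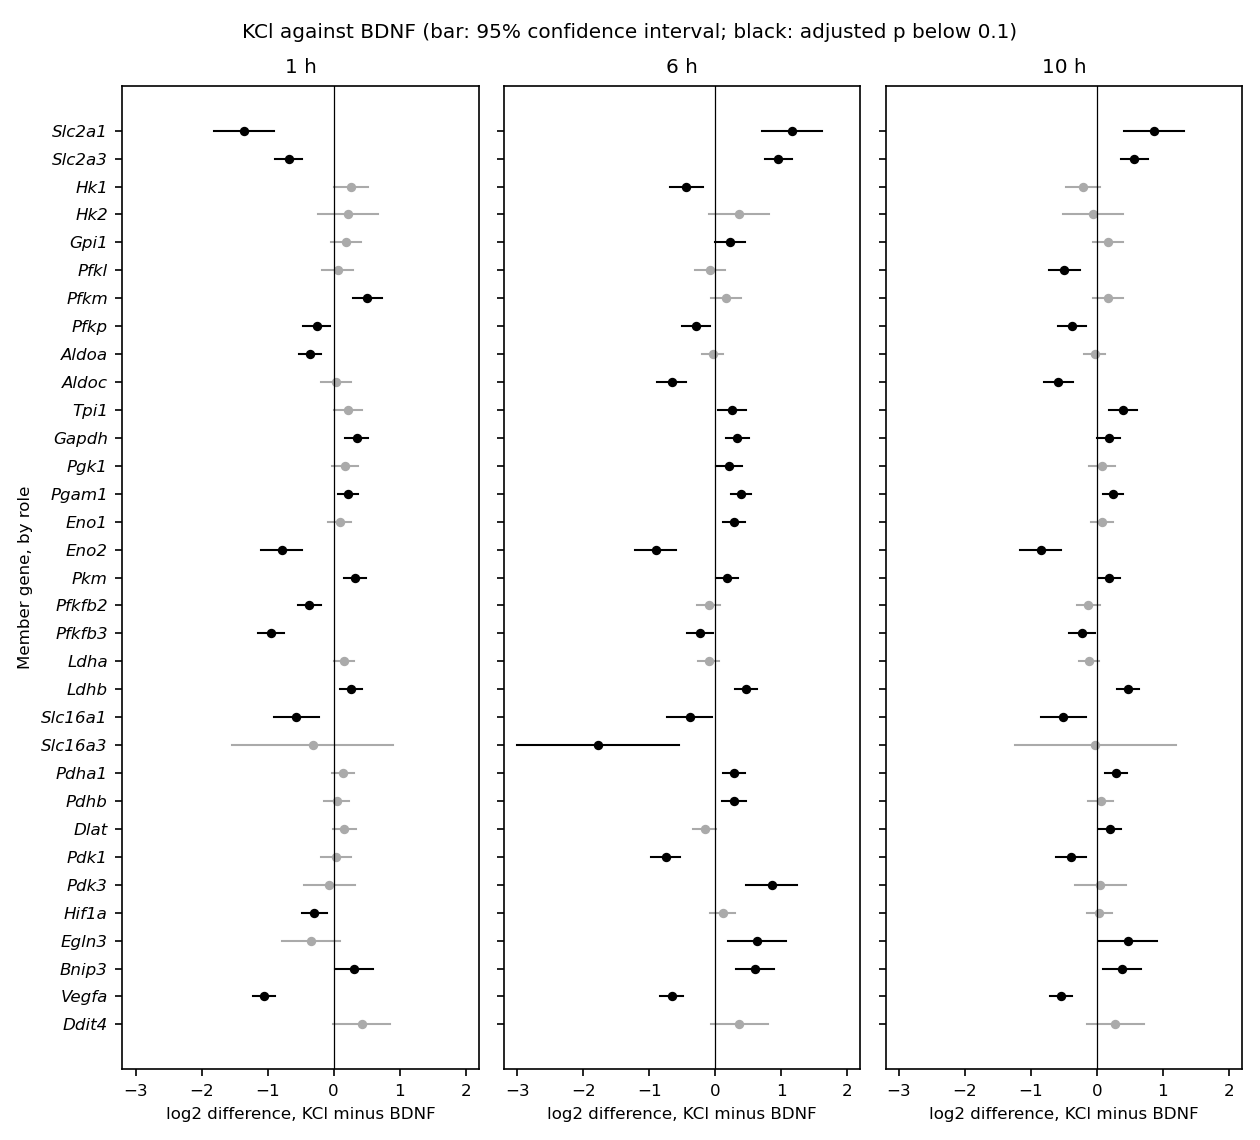
Log2 difference of RNA between KCl and BDNF (x axis) for the 33 members (rows) at 1, 6 and 10 h (panels), with 95% confidence intervals as bars and called differences (adjusted p below 0.1) in black. Slc2a1 and Slc2a3 lie left of 0 at 1 h and right of it at 6 and 10 h, whereas Eno2, Slc16a1 and Vegfa lie left of 0 at each time.

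Compared directly, 6 members were higher with KCl and 10 with BDNF after 1 h (42.8% of all genes called, 18.2% higher with KCl and 24.6% with BDNF). After 6 h these were 15 and 9 (57.3%, 27.8% and 29.6%), and after 10 h 11 and 8 (45%, 21.8% and 23.1%). With TMM scaling the split at 1 h was 12 and 10, where all genes gave 3420 and 3693 (2950 and 3986 without TMM). Of the calls, 11, 12 and 10 held without any 1 library. Slc2a1, Slc2a3, Eno2 and Vegfa were among them at each time. Over time, 9 members changed from 1 h to 6 h of BDNF (3 higher and 6 lower, where 33.6% of all genes were called, 15.8% higher and 17.7% lower) and 14 in KCl (8 and 6, against 59.6%, 30.9% and 28.7%), the BDNF count being 5 without BDNF 1 h library A. From 6 h to 10 h, 0 members were called with BDNF (0.216% of all genes by limma) and 6 with KCl (4 and 2, against 22.5%, 12.9% and 9.66%), a count of 13 without KCl 6 h library A and 2 without KCl 10 h library A. The BDNF count from 6 h to 10 h was also 0 by edgeR and by DESeq2 on whole reads, and 1 member had an unadjusted p below 0.05. The effect itself differed between 6 h and 1 h, each against controls of its own time, for 5 members with BDNF (1 up and 4 down, against 15.9% of all genes, 6.9% up and 8.98% down) and 9 with KCl (5 and 4, against 42.4%, 22.5% and 19.9%), among them Ldha (0.36, SE 0.11) with BDNF and Aldoc (-0.75, SE 0.14), Pdk1 (-0.67, SE 0.16), Hk1 (-0.64, SE 0.18) and Aldoa (0.44, SE 0.12) with KCl. These counts were 3 without BDNF 1 h library A and 15 without KCl 6 h library A.

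In chromatin, 113 peaks in or within 20 kb of the members were tested, 38 of them at promoters of 31 members and 75 elsewhere. At BDNF 1 h 19 were gained and 2 closed (18.6%), 16 of the gained ones outside promoters. Of all 56383 peaks tested by edgeR 17.3% were called there, 12.5% gained and 4.78% closed. At BDNF 6 h 13 were gained and 2 closed (10.6% of all peaks called, 8.88% gained and 1.75% closed). At BDNF 10 h the counts were 7 and 2 (9.36%, 7.46% and 1.9%). KCl gave 7 and 5 at 1 h (8.34% of all peaks, 5.29% gained and 3.05% closed). At 6 h KCl gave 3 and 6 (7.49%, 5.44% and 2.06%) and at 10 h 5 and 6 (7.87%, 5.91% and 1.96%). With KCl the split of gained against closed peaks depended on the scaling: TMM gave 8 and 11, 7 and 10, and 5 and 15 at 1, 6 and 10 h, and DESeq2 size factors 5 and 11 at 6 h, then 5 and 17 at 10 h. The BDNF 1 h count was 13 without library A and 7 without library B, the BDNF 6 h count 6 without its library A, and that of BDNF 10 h 4 without its library A. The direct comparison of the stimuli gave 2 peaks more open with KCl and 12 with BDNF at 1 h. Of all peaks 14.9% were called there, 5.55% more open with KCl and 9.3% with BDNF. The counts were 1 and 5 at 6 h (3.63%, 1.37% and 2.25%) and 0 and 1 at 10 h (1.99%, 0.83% and 1.16%). Against controls, the KCl counts were 4 without either library at 1 h, 3 without either at 6 h, then 3 and 4 at 10 h. Of the 11 promoter peaks called in any of the 6 comparisons, those of Hk2 at KCl 1 h (0.51, SE 0.12) and Pgk1 at BDNF 10 h (0.39, SE 0.11) were gained. Those of Pkm at BDNF 1 h (-0.43, SE 0.17), Pdha1 at KCl 6 h (-0.46, SE 0.16) and Pfkfb2 at an inner start with KCl at 1 and 10 h (-0.70 and -0.71) closed, and an inner Pfkfb3 promoter closed at BDNF 10 h and at KCl 6 and 10 h (-0.33 to -0.31). This Pfkfb2 peak is also a promoter peak of Yod1, the gene on the other strand.

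The AP-1 letters TGANTCA stood in 9 of the 19 member peaks gained at BDNF 1 h (47.4%), in 0 of the 2 that closed and in 3 of the 92 not called (3.26%). Over all peaks tested these shares were 66.2% of 7040 gained, 2.75% of 2694 closing and 8.55% of 46649 not called, so the share in the members' gained peaks lay below that in all gained peaks, a difference that was not tested. In windows of the lengths printed above (161, 254, 291 and 300 bases) at the centre of all peaks at least as wide, 11.1, 12.7, 12.8 and 12.8% held TGANTCA.

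Genes of neighbouring pathways, from lists chosen with the results known, are given beside the members at 6 h of each stimulus, where 43.3% of all genes were called with BDNF (22.1% higher and 21.1% lower) and 66.5% with KCl (33.4% and 33.1%). The genes named are among those of each list with the largest called change at KCl 6 h. Of 16 genes of the citrate cycle, 10 were higher and 1 lower at BDNF 6 h, and 7 higher and 6 lower at KCl 6 h, among them Suclg2 (-0.89, SE 0.14), Fh1 (-0.66, SE 0.08) and Idh3g (0.42, SE 0.07). Of 7 genes of glucose sensing, 1 was higher and 4 lower at BDNF 6 h, and 3 were higher and 4 lower at KCl 6 h. There Txnip, which restrains glucose uptake, gave -2.88 (SE 0.16), its relative Arrdc4 -1.34 (SE 0.09) and Mlxipl (ChREBP) -1.66 (SE 0.25). Txnip was also lower at BDNF 1 h (-1.69, SE 0.16, adjusted p = 1e-07) and KCl 1 h (-3.22, SE 0.16). Of 17 other HIF targets tested, 4 were higher and 4 lower at BDNF 6 h, and 8 higher and 4 lower at KCl 6 h, among them Stc2 (2.14, SE 0.11) and Ankrd37 (1.33, SE 0.38). Of 8 genes of the HIF machinery, 0 were higher and 3 lower at BDNF 6 h, and 3 higher and 2 lower at KCl 6 h, where Hif3a gave -1.06 (SE 0.31) and Egln2 0.45 (SE 0.11). Of 10 partners of pyruvate dehydrogenase, 5 were higher and 2 lower at BDNF 6 h, and 2 higher and 4 lower at KCl 6 h, with Pdpr at -1.25 (SE 0.11), Pdk2 at -0.72 (SE 0.11) and Pcx at -0.65 (SE 0.11). Of 12 other glucose and lactate transporters, 3 were higher and 0 lower at BDNF 6 h, and 3 higher and 4 lower at KCl 6 h, with Slc16a7 (MCT2, the neuronal lactate importer) at -1.57 (SE 0.12). Of 10 other isoforms of glycolytic enzymes, 3 were higher and 1 lower at BDNF 6 h, and 3 higher and 4 lower at KCl 6 h, with Pfkfb1 at -1.54 (SE 0.33) and Gapdhs at 0.68 (SE 0.17). Control means of Pfkfb1 and Gapdhs were 16.8 and 50.5 normalised reads. Of 7 pentose phosphate genes, 3 were higher and 1 lower at BDNF 6 h, and 2 higher and 1 lower at KCl 6 h. Of 10 glycogen genes, 1 was higher and 2 lower at BDNF 6 h, and 3 higher and 3 lower at KCl 6 h.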

How the data were processed

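RNA-seq and ATAC-seq were analysed in 18 libraries each. The authors aligned RNA reads with TopHat2 to mm10 and deposited gene counts divided by DESeq2 size factors (a signal per gene). Every value was a whole number of reads (100% within 0.01). For ATAC-seq the authors used Trimmomatic, Bowtie2, MACS2 per sample and DiffBind, and deposited read counts of peaks seen in at least 2 samples. That table is named as normalised but holds whole numbers with differing totals, and was treated as counts. Gene symbols came from GENCODE M21 and from names deposited beside the identifiers. The authors' own fold changes and p-values, of genes and of peaks, were not used. Columns of unmapped values numbered 0. RNA columns carry replicate letters, and ATAC libraries A and B are in table order.

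RNA was tested with limma 3.58.1 (trend, robust) on log2(value + 1), in 7 levels with the 6 controls as 1, for 16209 genes with a mean of at least 10, with Benjamini-Hochberg adjustment and a call at adjusted p below 0.1. Fold changes are on this log2 scale and are understated for low genes. Time interactions used 9 levels. ATAC counts were tested with edgeR 4.0.16 (quasi-likelihood, LOESS offsets), and scaled counts are counts after these offsets. Peaks were assigned to a member in the gene or within 20 kb of it. Promoter peaks lie from 1000 bp before to 100 bp after a transcript start. TPM was computed over union exon length. Fits were tested on simulated data. All 33 members are named, list genes are given by count with at most 3 names each from KCl 6 h, and peaks by the called promoters and the 5 called others with the largest change. Members, lists and tests were chosen with earlier results of these data known. DESeq2 1.42.0 and R 4.3.3 were used for alternatives. Counts limit precision, and intervals of fold changes cover only the spread between libraries. Promoter sequences are from RefSeq (GRCm38.p6), in which 32 members matched.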

Additional observations from a re-analysis of the deposited data

Results flagged for a closer look

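In 4 cases the effect of a stimulus changed between 1 h and 6 h, each time against controls of the same time, by a tested difference of at least 1 on the log2 scale (limma, interaction term). With BDNF the effect on Slc2a1 was smaller at 6 h by -1.457 (SE 0.31, adjusted p = 0.0082), and that on Slc2a3 by -1.439 (SE 0.15, adjusted p = 3.6e-06). With KCl the effect on Slc2a1 was larger at 6 h by 1.061 (SE 0.31, adjusted p = 0.018), and that on Pdk3 by 1.053 (SE 0.21, adjusted p = 0.00079).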

How the results depend on the processing

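Of 176 called member values in 9 comparisons, 106 kept their call under every alternative run. At adjusted p below 0.01, members called were 10 at BDNF 1 h, 11 at BDNF 10 h, 10, 14 and 11 between KCl and BDNF at 1, 6 and 10 h, 5 from 1 h to 6 h of BDNF, 9 from 1 h to 6 h and 2 from 6 h to 10 h of KCl, and 3 and 5 for the time interactions of BDNF and KCl. Member peaks at that threshold numbered 10, 6 and 5 in BDNF groups and 4, 2 and 2 in KCl groups. With controls of the same time, 9 members were called at BDNF 1 h and 14 at KCl 1 h, and 9 peaks at BDNF 6 h, 3 at BDNF 10 h, 7 at KCl 1 h and 4 at KCl 10 h. TMM scaling gave 19, 17 and 20 peaks for KCl at 1, 6 and 10 h, DESeq2 size factors 16 and 22 at 6 and 10 h, and limma 6 at KCl 1 h. Without single libraries, members called ranged from 9 to 18 at BDNF 1 h, 10 to 18 at BDNF 10 h, 5 to 7 from 1 h to 6 h of BDNF, 2 to 13 from 6 h to 10 h of KCl, and 3 to 5 and 7 to 15 for the interactions of BDNF and KCl. Peaks ranged from 7 to 23, 6 to 16 and 4 to 10 with BDNF and from 4 to 14, 3 to 10 and 3 to 12 with KCl at 1, 6 and 10 h. Ddit4 at KCl 6 h, not called, went from 0.04 to -0.41 without library A and 0.49 without library B, both called. The causes were not tested.

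With a replicate block, 18, 18 and 18 members were called with BDNF and 23, 24 and 22 with KCl at 1, 6 and 10 h. The block used the letters as given, and the labels do not say whether they pair the samples. Over 36 pairs of groups the differences between A and B correlated from -0.31 to 0.42, with a median of 0.06. The endothelial and pericyte sum was lower in library A than in B in each group except Control 10 h (36.8 and 22.6 TPM). The same held for Slc2a1 (273 and 193 reads at Control 10 h). Whether libraries share a batch across groups was not tested. ATAC depths down to 1.24 M reads and 2 libraries a group limit the precision of peak values.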
